A study of Bos taurus with 28 samples.

Results

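SIK1, CREM, RGS1, GADD45B and RASD1, transcripts that stimulated cells make and that mostly damp signalling, were followed in the anterior pituitary gland of heifer calves. They are 5 of the 27607 genes in the deposited table. They were chosen by name and identifier from the study's list of genes that differed between its diets, so the diet contrast itself chose them and their diet differences are given here as a description only. The tests below concern how the 5 genes vary together among calves fed the same diet. The choice did not use that agreement, although it did depend on the spread within diets and on the MOD calves with high levels.

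The calves were Angus × Holstein-Friesian crossbred heifers sampled at 21 weeks of age, with 13 on a High plane of nutrition (HI) and 15 on a Moderate plane (MOD). In the calf phase of 8 weeks the daily milk replacer began at 1.5 kg in 10 litres for HI calves and 0.5 kg in 4 litres for MOD calves and was reduced stepwise to weaning. HI calves had concentrates to appetite in this phase, and MOD calves an allowance that rose to 1 kg. In the 11 weeks after weaning HI calves had concentrates to appetite and MOD calves 1 kg, and both had hay to appetite. The paper describes the MOD diet as a typical one for growing calves and the HI diet as one meant to meet full metabolic requirements. There was no unfed group and no group on another diet, and each library was 1 calf.

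Pituitary hormone cells are controlled by receptors coupled to G proteins. Receptors that act through the stimulatory G protein raise cyclic AMP, which activates protein kinase A and the transcription factor CREB, while receptors that act through inhibitory G proteins, such as the dopamine receptor of lactotrophs, lower it. CREB and related factors switch on early genes within minutes to hours, and some of these act back on the pathway. SIK1, a salt-inducible kinase, phosphorylates the CRTC coactivators of CREB and keeps them out of the nucleus. CREM is a relative of CREB whose short inducible forms, known as ICER, compete with CREB for cyclic AMP response elements. RGS1 speeds the hydrolysis of GTP by G protein alpha subunits and so ends receptor signals. RASD1 is a small GTPase, induced by glucocorticoids, that modulates inhibitory G protein signalling. GADD45B is an inducible stress-response protein that acts on MAP kinase cascades and DNA demethylation, and is not itself a regulator of cyclic AMP or G proteins.

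Expression is given in CPM, read counts per equal number of reads, scaled on library sizes that the TMM method had adjusted for composition. Reads counted on genes ran from 12928932 to 18217216 per calf in HI (median 15822757) and from 12669266 to 18196391 in MOD (median 15923476), so that 1 read added 0.0482 to 0.0830 CPM. Of the 8 anterior pituitary hormone transcripts listed as markers, the 3 with an identifier at hand (PRL, CSHL1 and FSHB) were detected in every calf and summed to between 135194 and 420908 CPM. PRL and CSHL1 took 15.3 to 32.7% of the reads in HI and 18.1 to 33.9% in MOD, where calf 2551 was the highest. The relations that passed within MOD are given below with and without this calf. The tissue was sequenced in bulk, so fewer cells of a type and less RNA per cell cannot be told apart, and the labels give no block or sequencing batch.

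RASD1 (ENSBTAG00000020520) was the most widely separated between diets of the 5. In HI calves its lowest, median and highest levels were 34.3, 70.7 and 108 CPM, and in MOD calves 69.0, 152 and 319 CPM. All 13 HI calves lay below the MOD median and 10 of the 15 MOD calves lay above the highest HI calf, although the ranges overlapped. The mean of HI calves was 66.0 ± 24.5 CPM (SD, n = 13) and that of MOD calves 153 ± 64.6 CPM (SD, n = 15). On the log2(CPM + 0.5) scale HI minus MOD was -1.19 (standard error 0.21), equal to a 2.28-fold higher level in MOD.

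RGS1 (ENSBTAG00000021672) was the least abundant in reads, with 10 to 265 reads per calf, so that counting error weighs most on it. Its lowest, median and highest levels were 0.816, 1.94 and 9.71 CPM in HI calves and 1.20, 6.73 and 15.4 CPM in MOD calves. Of the 13 HI calves, 12 lay below the MOD median, but HI calf 1050 (9.71 CPM) lay among the higher MOD calves and MOD calves 1057 (1.74 CPM) and 1690 (1.20 CPM) lay below the HI median. HI calves averaged 3.12 ± 2.47 CPM (SD, n = 13) and MOD calves 7.15 ± 4.18 CPM (SD, n = 15), and the log2 difference was -1.09 (standard error 0.31).

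SIK1 (ENSBTAG00000011437) was at 18.7, 29.3 and 75.9 CPM (lowest, median and highest) in HI calves and at 37.5, 54.4 and 110 CPM in MOD calves. Of the HI calves, 8 lay below every MOD calf, whereas HI calf 1050, the highest of its diet, was exceeded by only 2 MOD calves. HI calves averaged 37.8 ± 17.1 CPM (SD, n = 13) and MOD calves 59.8 ± 20.04 CPM (SD, n = 15), and the log2 difference was -0.71 (standard error 0.19).

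CREM (ENSBTAG00000016060) was at 12.9, 21.2 and 23.8 CPM (lowest, median and highest) in HI calves and at 17.1, 25.9 and 66.7 CPM in MOD calves. Of the MOD calves, 10, at 17.1 to 27.5 CPM, were close to or within the HI range, and the other 5 (calves 1690, 991, 2551, 3622 and 911) were at 40.3 to 66.7 CPM. HI calves averaged 19.7 ± 3.63 CPM (SD, n = 13) and MOD calves 31.6 ± 16.9 CPM (SD, n = 15), and the log2 difference was -0.53 (standard error 0.19). The table counts reads per gene, so the short ICER forms and the full-length forms of CREM cannot be told apart in it.

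GADD45B (ENSBTAG00000025462) was at 7.81, 10.5 and 16.9 CPM (lowest, median and highest) in HI calves and at 11.8, 14.6 and 40.7 CPM in MOD calves. Of the 13 HI calves, 8 lay below every MOD calf and 12 below the MOD median. Calves 2537 (36.8 CPM) and 2551 (40.7 CPM) stood above the other 13 MOD calves, which lay between 11.8 and 20.03 CPM. HI calves averaged 10.8 ± 2.30 CPM (SD, n = 13) and MOD calves 17.9 ± 8.86 CPM (SD, n = 15), and the log2 difference was -0.62 (standard error 0.16). Without either of those 2 calves the log2 difference was -0.54 (2537 left out) or -0.53 (2551 left out), and either omission took the fold change below 1.5 and ended the call, which was also lost without HI calf 1707. The calves highest for GADD45B were not those highest for CREM, apart from 2551, which was high in both.

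**Figure D1:**
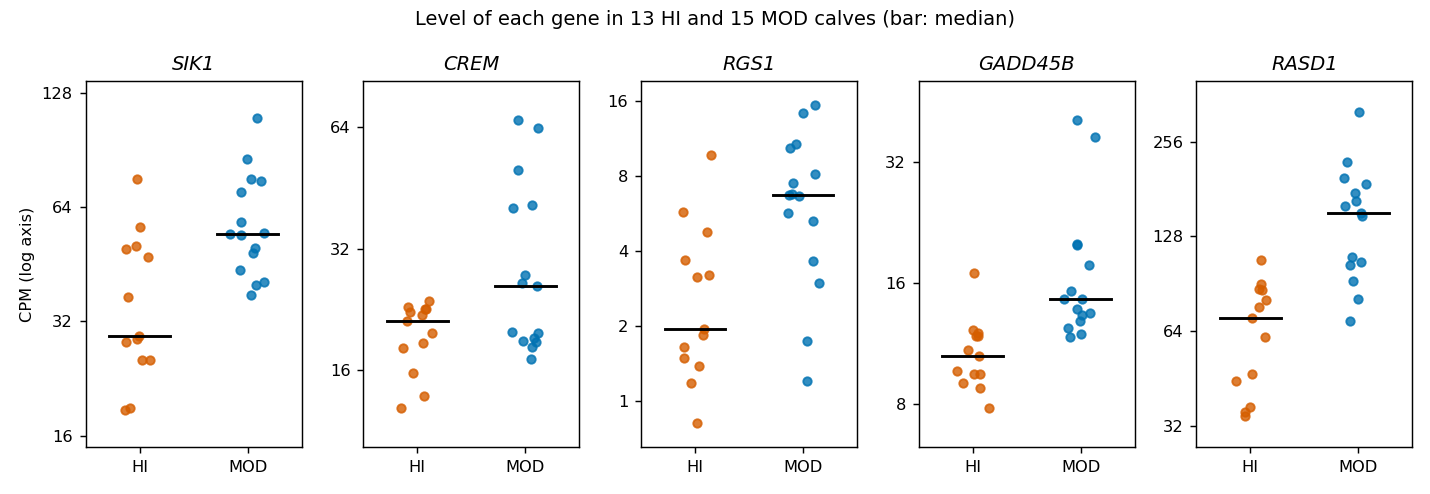
CPM (log axis, scaled separately for each gene) of the 5 genes in each of the 13 HI and 15 MOD calves, with 1 point per calf and a bar at the median of each diet. All 13 HI calves lie below the MOD median for CREM and RASD1, while the 5 highest CREM levels and the 2 highest GADD45B levels belong to MOD calves that stand apart from their diet.

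With limma over all genes tested, 4 of the 5 (SIK1, RGS1, GADD45B and RASD1) passed both thresholds (Benjamini-Hochberg adjusted p under 0.05, fold change over 1.5), where 0.428% of the 14939 genes tested did so with lower expression in HI. Since that contrast chose the 5 genes, nothing is read from this count. The call of RGS1 held in 8 of the 28 fits that omitted a calf and in 6 of 9 alternative settings, while the other 3 calls held in 23 or more of those fits. That of SIK1 was lost without HI calf 1089, 1360, 1388, 2528 or 3620. GADD45B lay just inside the fold change threshold, at 1.54-fold, and CREM just outside it, at 1.44-fold, where it also missed the threshold on the adjusted p. In the order of all tested genes from the largest fall in HI, RASD1 was at position 11, RGS1 at 17, SIK1 at 66, GADD45B at 103 and CREM at 170.

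The spread among calves of a diet also set the genes apart. The SD of log2(CPM + 0.5) of CREM was 0.28 in HI and 0.68 in MOD, and that of GADD45B was 0.27 in HI and 0.54 in MOD. For comparison, the median SD over all tested genes was 0.25 in HI and 0.23 in MOD. SIK1, RASD1 and RGS1 were variable in both diets, with SDs of 0.62, 0.57 and 0.85 in HI and 0.44, 0.59 and 0.92 in MOD. Thus CREM was near the middle of all genes for its spread in HI (percentile 60.1) and near the top in MOD (percentile 97.1).

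Whether the 5 genes rose and fell together was examined across calves of the same diet, which leaves the difference of the diet means aside, although the MOD calves with high levels also raised the contrast that chose the genes. There are 10 pairs, and the 20 relations in both diets were tested by 2-sided permutation with 100000 resamples. In MOD calves SIK1 and CREM were related, with a Pearson r of 0.77 (n = 15, permutation p = 0.00063, Benjamini-Hochberg adjusted p = 0.0126) and a Spearman rho of 0.73 (permutation p = 0.00315, adjusted p = 0.0630). The r was 0.76 (permutation p = 0.00264) without the 2 calves farthest from the SIK1 median, where the pair did not pass adjustment, and it was 0.76 without calf 2551 (permutation p = 0.00182). Over the fits that each omitted a calf, r stayed between 0.76 and 0.82 and the pair passed adjustment each time. The 5 calves with CREM above 30 CPM were all at or above the MOD median of SIK1. Among the 10 MOD calves below that level r was 0.54 and rho 0.41 (n = 10, permutation p = 0.110 and 0.247). That limit was set on CREM itself after seeing the data, so it narrows the range of 1 of the 2 genes.

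In the same calves CREM and RASD1 had an r of 0.61 (n = 15, permutation p = 0.0167, adjusted p = 0.111) and RGS1 and RASD1 an r of 0.61 (permutation p = 0.0154, adjusted p = 0.111), with rho of 0.45 and 0.66 (permutation p = 0.0902 and 0.00912). Without the 2 calves farthest from the median of the first gene, their r was 0.29 and 0.47 (permutation p = 0.328 and 0.103). SIK1 and RASD1 had an r of 0.46 (permutation p = 0.0866, adjusted p = 0.367) and a rho of 0.53 (permutation p = 0.0440). The r of that pair was 0.65 without the 2 farthest calves (permutation p = 0.0165). None of these pairs passed after adjustment. The 10 values of r had a median of 0.26 and were above 0 in MOD over all 15 calves, but their signs did not hold throughout. All 4 GADD45B pairs had a rho below 0, from -0.16 to -0.05. Leaving out single calves also took r below 0 for SIK1 with RGS1 (to -0.14 without calf 1057), CREM with RGS1 (to -0.10 without 3622), CREM with GADD45B (to -0.17 without 2551) and RGS1 with GADD45B (to -0.15 without 2537). The r of SIK1 with RGS1, 0.03 over all 15 calves, also moved up. It reached 0.31 with a calf left out and 0.70 without the 2 calves farthest from the SIK1 median (permutation p = 0.00708, unadjusted). GADD45B had r of 0.01 to 0.10 with RGS1, CREM and RASD1. Its r with SIK1 was 0.41 over all MOD calves and 0.05 without calf 2551, with a rho of -0.05.

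In HI calves no pair passed, either after adjustment or at an unadjusted permutation p below 0.05, by r or by rho. The largest r was that of SIK1 and RASD1 (r = 0.49, rho = 0.47, n = 13, permutation p = 0.0916 and 0.111), which was 0.37 without the 2 farthest calves. GADD45B and RASD1 were as far from 0 by rho in the opposite direction (r = -0.30, rho = -0.47, permutation p = 0.329 and 0.110). Their r was -0.71 without calf 553 (adjusted permutation p = 0.0833) and -0.70 without the 2 farthest calves (permutation p = 0.0221). SIK1 and CREM had an r of -0.00014 (n = 13, permutation p = 1.00) and a rho of -0.05. The r of this pair in MOD minus that in HI was 0.77 (permutation p = 0.0132), which did not pass adjustment over the 10 pairs (adjusted p = 0.132), and no other pair came closer. The data therefore do not show that agreement between the genes differed with diet.

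**Figure D2:**
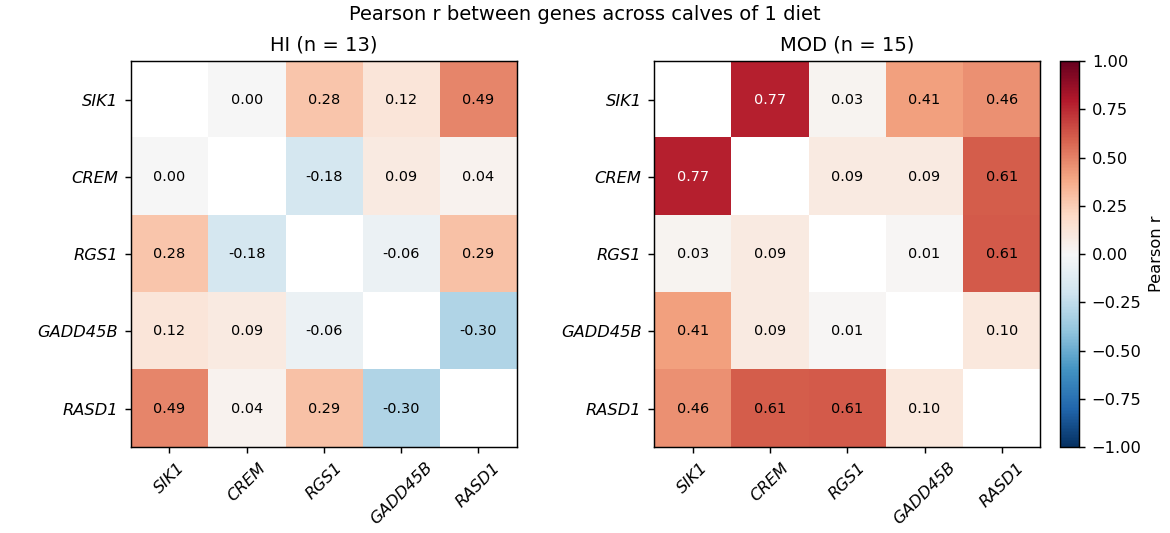
Pearson r between each pair of the 5 genes across the 13 HI calves (left) and the 15 MOD calves (right), on log2(CPM + 0.5), with colour from -1 (blue) to 1 (red). SIK1 and CREM stand at 0.77 in MOD and at about 0 in HI, and the GADD45B row runs from -0.30 to 0.12 in HI and from 0.01 to 0.41 in MOD.

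With both diets joined after each gene was centred on its diet mean, 3 of the 10 pairs passed. These were SIK1 with CREM (r = 0.44), SIK1 with RASD1 (r = 0.47) and RGS1 with RASD1 (r = 0.48), each at an adjusted permutation p of 0.0472 over 28 calves. By rho, here on ranks taken within each diet, SIK1 with RASD1 (rho = 0.51) and RGS1 with RASD1 (rho = 0.52) passed, both at an adjusted permutation p of 0.0421, and SIK1 with CREM did not (rho = 0.42, adjusted permutation p = 0.111). Without the 2 calves farthest from the median of the first gene, r fell to 0.37 for SIK1 with CREM, 0.39 for SIK1 with RASD1 and 0.37 for RGS1 with RASD1. No pair passed by r with a pseudocount of 0.1 or with library totals that omit PRL and CSHL1. When calves were omitted singly r stayed between 0.37 and 0.51 for SIK1 with CREM and between 0.40 and 0.55 for each of the other 2, but the adjusted p lay so near the threshold that the calls changed. No pair passed when any of 13 of the 28 calves was omitted (HI calves 553, 986, 1050 and 1531 and MOD calves 911, 991, 1057, 1395, 1689, 2532, 2537, 2551 and 3622), 1 passed without HI calf 1360, 2528 or 3620, and 2 without HI calf 2120. In the other fits 3 pairs (6 fits) or 4 pairs (5 fits) passed. GADD45B had r of 0.27, 0.09, -0.01 and -0.01 with SIK1, CREM, RGS1 and RASD1, and rho of -0.04, 0.01, -0.15 and -0.27. The r with SIK1 was 0.08 without calf 2551. Across the 28 calves with diets mixed, r ran from 0.26 to 0.68, a range that includes the diet difference for which the genes were chosen.

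The order of the calves differed from gene to gene. Calf 553 alone among the HI calves was above its diet's median for all 5 genes, calf 1050 was above it for all but GADD45B, and 10 of the 13 HI calves were above it for 2 of the 5. Among MOD calves 2537 was above the median for all 5, 2551, 3622 and 911 for 4, and 1689 and 2532 for none. Calf 911 was the highest MOD calf for both CREM and RASD1 (66.7 and 319 CPM), while 1690, second for SIK1 (85.8 CPM), was the lowest for RGS1 (1.20 CPM). Calf 975, the highest for RGS1 (15.4 CPM), was the lowest for both CREM (17.1 CPM) and GADD45B (11.8 CPM).

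**Figure D3:**
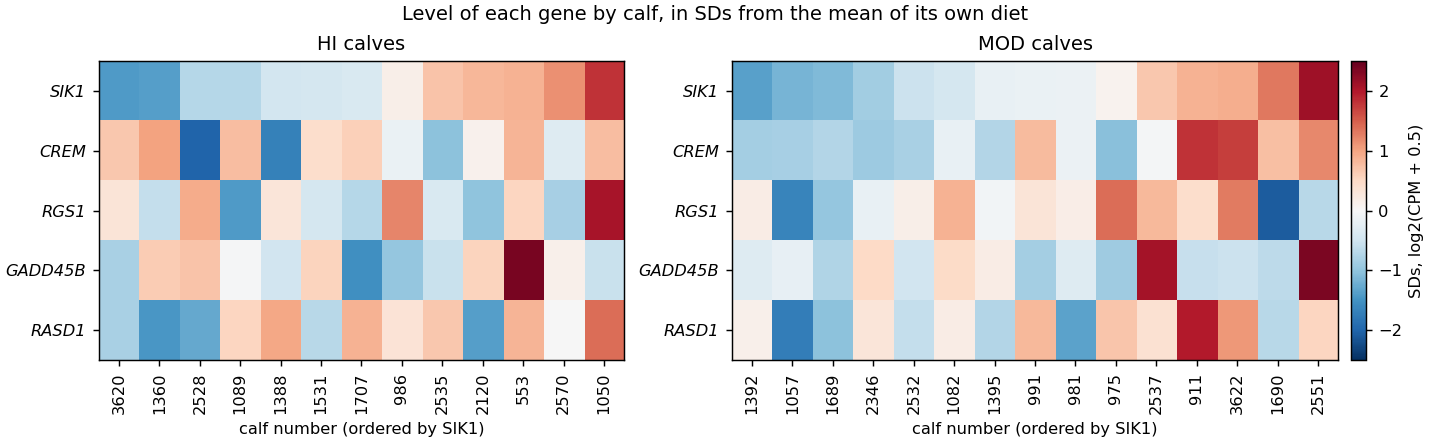
Level of each gene (rows) in each calf (columns, ordered by SIK1 within diet), in SDs of log2(CPM + 0.5) from the mean of the calf's own diet. In MOD the red SIK1 and CREM cells gather at the right, whereas GADD45B is red in 2537 and 2551 and RGS1 is blue in 1690.

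To set these relations against the background, a limma fit with diet and the level of 1 gene as terms was run for each of the 5 over the other 14938 tested genes. With the adjusted p (Benjamini-Hochberg) under 0.05, 184 genes (1.23%) were related positively to CREM, 5 (0.0335%) to GADD45B, 4 (0.0268%) to SIK1, 1 (0.00669%) to RASD1 and 0 (0%) to RGS1. None of the 5 was among the positives of another in this fit. SIK1 with CREM, SIK1 with RASD1, CREM with RASD1 and RGS1 with RASD1 had an unadjusted limma p-value below 0.05, each in both of its fits. Over all genes the share at that level, in either direction, was 9.22% with SIK1, 14.3% with CREM, 8.82% with RGS1 (1317 genes), 15.97% with GADD45B and 4.36% with RASD1. Within MOD calves alone, 160 genes (1.07%) were related positively to CREM and SIK1 was among them (limma adjusted p = 0.0187), whereas 2 (0.0134%) were related positively to SIK1 and CREM was not among them. Within HI calves alone, 0 genes (0%) were related to CREM in either direction, and 2 (0.0134%) were related positively to SIK1. The diets were not compared on these counts.

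Ranked by Spearman rho over 28 diet-centred calves, RGS1 was at position 66 and SIK1 at position 87 among the 14938 genes most like RASD1. CREM was at position 349 and GADD45B at 12991 in the same order. In the order for SIK1, RASD1 was at position 146, CREM at 264, RGS1 at 3338 and GADD45B at 6325. In the order for CREM, SIK1 was at position 804, RASD1 at 1247, RGS1 at 7693 and GADD45B at 8533. GADD45B was thus the lowest of the 4 in all 3 orders.

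The genes with a symbol whose pattern was most like each member were named by the same measure. For CREM they were MAFF (rho = 0.85, the highest of all 14938 genes, limma adjusted p = 5.26e-07), CDC42EP4 (rho = 0.73, adjusted p = 0.000205) and FOSB (rho = 0.71, adjusted p = 0.000848). MAFF is a small MAF transcription factor, CDC42EP4 a binding protein of the CDC42 GTPase and FOSB a component of the AP-1 transcription factor. For GADD45B they were JUNB, another AP-1 component (rho = 0.58, position 19, limma adjusted p = 0.0247), EGR1 (rho = 0.45, position 235) and LMOD1 (rho = 0.41, position 402), of which JUNB alone passed.

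For SIK1 the closest were ATF3, an inducible relative of CREB (rho = 0.58, position 28), ABHD6 (rho = 0.48, position 120) and C2CD4B (rho = 0.46, position 147). In that order RASD1, at position 146, came just before C2CD4B. For RGS1 they were CEBPD (rho = 0.57, position 64), KLF11 (rho = 0.55, position 94) and TXNIP (rho = 0.55, position 101). For RASD1 they were CEBPD (rho = 0.55, position 17), CES4A (rho = 0.53, position 33) and ABHD6 (rho = 0.52, position 36). None of these 9 passed the limma fit after adjustment. CEBPD, a transcription factor that glucocorticoids induce, was thus the closest named gene to both RGS1 and RASD1. The symbols come from the study's list, so only genes that it chose on these calves could be named.

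Of the 39 genes listed as induced by cell activity, 9 have an identifier. All 9 had a negative log2 fold change in HI, with a median of -0.85 against -0.0058 over all tested genes. Of the 9, 3 (ARC, CEBPD and EGR1) were called lower with limma, against 0.428% of all tested genes. Only genes that the study had already called on these samples carry an identifier here, so neither these calls nor their direction are independent evidence. In the limma fit with diet and a member as terms, 2 of the 9 (FOSB and MAFF) were related positively to CREM, against 1.23% of all genes, 1 (JUNB) to GADD45B, against 0.0335%, and none to SIK1, RGS1 or RASD1. CREM was also related positively to 2 of the 7 other regulators described next (RRAD and ARRDC2) and negatively to 1 of the 9 receptors and G protein subunits (GPR139), against 0.703% of all genes in that direction. The genes with an identifier were chosen on a contrast that the MOD calves with high levels also raised. The share over all genes is therefore no like background for them, and nothing is read from these counts.

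Of the 26 receptors and G protein subunits listed, 9 have an identifier. These too could be named only because the study called them, so that the calls are a description. Over all tested genes 0.408% were called higher and 0.428% lower in HI. Of the 9, limma called 4 higher in HI, namely DRD2 (the dopamine receptor that restrains prolactin), CASR, GPR139 and GNA15. GRM7, GRPR and ADGRG2 were called lower, and GHRHR and CX3CR1 were not called, with log2 fold changes of -0.57 and 0.63. Of the 9 log2 fold changes 5 were positive and 4 negative, with a median of 0.63. Of the 33 other regulators listed, 7 have an identifier, of which DIRAS2 and PRKCB were called higher and RRAD and DUSP26 lower in HI, while PLCH2, CAMK1D and ARRDC2 were not called. RRAD and DIRAS2 are, like RASD1, small GTPases of the RAS superfamily. Close relatives of the 5 genes, such as SIK2, RGS2 and RASD2, were not analysed here.

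Each of the 5 genes was then set against the genes with an identifier within each diet, in 330 relations tested by 2-sided permutation. No relation passed in the 165 of HI calves and 7 passed in the 165 of MOD calves by r, of which 2 also passed by rho. CREM took 4 of the 7. CREM and MAFF had an r of 0.95 in MOD calves (n = 15, permutation p = 1e-05, the smallest that the resamples can give, adjusted p = 0.0033) and a rho of 0.87 (permutation p = 3e-05, adjusted p = 0.0099), and the r was 0.91 without the 2 farthest calves. In HI calves the same pair had an r of 0.51 and a rho of 0.52 (n = 13, permutation p = 0.0690 and 0.0745). Among the 10 MOD calves with CREM below 30 CPM the r was 0.68 and the rho 0.58 (permutation p = 0.0436 and 0.0878).

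CREM and FOSB had an r of 0.82 (n = 15, permutation p = 0.00028, adjusted p = 0.0185) and a rho of 0.78 (permutation p = 0.00102, adjusted p = 0.0802) in MOD calves, with an r of 0.64 without the 2 farthest calves. CREM was inversely related to the receptor GPR139 (r = -0.81, permutation p = 0.00056, adjusted p = 0.0264, rho = -0.75, permutation p = 0.00188) and to GNA15, a G protein alpha subunit of the Gq class (r = -0.81, permutation p = 0.00035, adjusted p = 0.0192, rho = -0.72, permutation p = 0.00316). Without the 2 farthest calves r became -0.62 and -0.78. Among the 10 MOD calves with CREM below 30 CPM, a narrower range of CREM, GPR139 had an r of -0.20 and a rho of -0.44 (n = 10, permutation p = 0.659 and 0.205) and GNA15 an r of -0.35 and a rho of -0.14 (permutation p = 0.318 and 0.708). FOSB had an r of 0.72 and a rho of 0.44 in the same calves (permutation p = 0.0155 and 0.203). GPR139 and GNA15 were at low levels in MOD, with means of 1.12 and 1.35 CPM.

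SIK1 and ATF3 had an r of 0.82 (n = 15, permutation p = 0.00022, adjusted p = 0.0185) and a rho of 0.70 (permutation p = 0.00543) in MOD calves and an r of 0.64 and a rho of 0.52 in HI calves (n = 13, permutation p = 0.0141 and 0.0721). ATF3 was at 36.1 CPM in calf 2551 and at 12.3 CPM in the next MOD calf, and without calf 2551 the r in MOD was 0.72 (n = 14, permutation p = 0.00335). GADD45B and JUNB had an r of 0.80 (n = 15, permutation p = 0.00019, adjusted p = 0.0185) and a rho of 0.75 (permutation p = 0.00181) in MOD calves, and the r fell to 0.59 without the 2 farthest calves and to 0.74 without calf 2551 (permutation p = 0.00142). RASD1 and ARRDC2, an arrestin-domain protein, had an r of 0.74 (n = 15, permutation p = 0.00025, adjusted p = 0.0185) and a rho of 0.83 (permutation p = 0.00025, adjusted p = 0.0412) in MOD calves, and an r of 0.60 without the 2 farthest. In HI calves GADD45B and JUNB had an r of 0.33 and RASD1 and ARRDC2 an r of -0.05 (n = 13, permutation p = 0.262 and 0.872). In the limma fit with diet and RASD1 as terms, adjusted over all genes, ARRDC2 was not called (adjusted p = 0.943), and limma called no gene related to RASD1 within MOD calves alone. Among the 330 permutation relations no listed gene passed with more than 1 of the 5, and RGS1 had none that passed, although in the limma fit ARRDC2 was called with CREM (adjusted p = 0.0126). The MOD calves behind these relations also entered the contrast for which the study listed the genes.

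**Figure D4:**
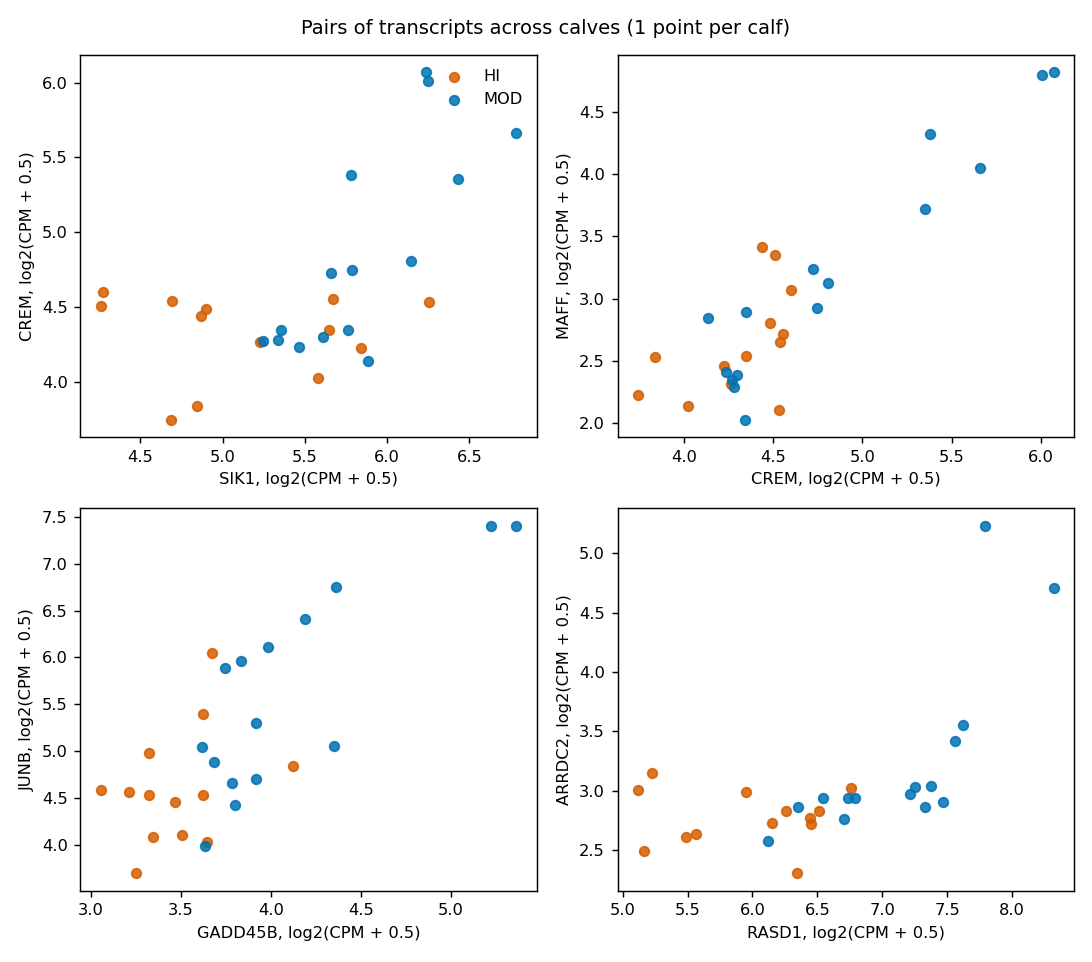
Levels of 4 pairs of transcripts in each calf, as log2(CPM + 0.5), with HI calves in orange and MOD calves in blue. In MOD calves r was 0.77 for SIK1 and CREM, 0.95 for CREM and MAFF, 0.80 for GADD45B and JUNB and 0.74 for RASD1 and ARRDC2, and the highest points of the last pair are 2 MOD calves.

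The difference in r between diets was tested for the same 165 combinations. SIK1 and MAFF alone passed, although neither within-diet relation passed adjustment over the 330 (adjusted permutation p = 0.0784 in MOD and 0.197 in HI), with an r of 0.70 in MOD (n = 15, permutation p = 0.0038) and -0.63 in HI (n = 13, permutation p = 0.0206), a difference of 1.33 (permutation p = 0.00027, adjusted p = 0.0445). The rho was 0.74 in MOD and -0.51 in HI (permutation p = 0.00246 and 0.0813), and without the 2 farthest calves r was 0.72 and -0.54.

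Library properties moved with some of these levels. In MOD calves SIK1 was related to the share of reads on PRL and CSHL1 (r = 0.74, n = 15, permutation p = 0.00109, adjusted p = 0.0265 over 30 relations, rho = 0.65, permutation p = 0.0107, r = 0.52 without the 2 farthest calves) and to the number of genes detected (r = -0.70, adjusted permutation p = 0.0374, rho = -0.60, permutation p = 0.0192, r = -0.42 without the 2 farthest calves). Without calf 2551 these were 0.59 and -0.51 (n = 14, permutation p = 0.0280 and 0.0605). GADD45B with the share (r = 0.70, rho = 0.38, n = 15, permutation p = 0.00961 and 0.165, adjusted p = 0.0577 for r) and CREM with the number of genes detected (r = -0.63, rho = -0.61, permutation p = 0.0116 and 0.0174, adjusted p = 0.0578 for r) did not pass adjustment. Without calf 2551 they were 0.36 and -0.57 (n = 14, permutation p = 0.217 and 0.0321). In HI calves RGS1 was related to the number of genes detected (r = 0.78, n = 13, permutation p = 0.00177, adjusted p = 0.0265, rho = 0.74, permutation p = 0.00541, r = 0.73 without the 2 farthest calves), and with the share its r was -0.69 and its rho -0.79 (permutation p = 0.00873 and 0.00201, adjusted p = 0.0577 and 0.0603). RASD1 was not related to any of the 3 library measures at an unadjusted permutation p below 0.05 in either diet. With the share and the number of genes detected removed, r in MOD calves was 0.66 for SIK1 and CREM (n = 15, permutation p = 0.00689), 0.57 for SIK1 and ATF3, and between 0.71 and 0.94 in size for the other 6 relations named above. Without calf 2551 the 8 relations lay between 0.72 and 0.95 in size. The part of these library properties in the levels was otherwise not tested.

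RGS1 is well known from white blood cells, so their markers were read beside it. Of the 10 listed, the 4 with an identifier (CX3CR1, CD79B, TIMD4 and LAMP3) were detected in every calf. Their summed level was 26.3 to 118 CPM in HI (median 63.6) and 18.7 to 69.9 CPM in MOD (median 45.6), and most of it was CX3CR1 (means of 55.7 CPM in HI and 36.3 CPM in MOD). The 4 did not move one way: limma called LAMP3 higher in HI (log2 fold change 0.62) and the B cell marker CD79B lower (log2 fold change -0.65, from 0.888 and 1.67 CPM), as RGS1 was, while TIMD4 (0.77) and CX3CR1 (0.63) were not called. Within diets RGS1 had r between -0.22 and 0.73 with them, and none passed adjustment over the 330 relations. The highest r was LAMP3 in MOD calves (r = 0.73, n = 15, permutation p = 0.00239, adjusted p = 0.0568, rho = 0.61, permutation p = 0.0162). The 2 smooth muscle markers with an identifier, of 5 listed, summed to 17.3 to 69.1 CPM in HI and 25.4 to 142 CPM in MOD. ACTA2 and LMOD1 had log2 fold changes of -0.69 and -0.51, in the same direction as the 5 genes, and limma called neither. Within diets their r with the 5 genes lay between -0.36 and 0.46, and none passed adjustment over the 330 relations or in the limma fit with diet and a member as terms.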

How the data were processed

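Anterior pituitary mRNA of 28 calves was sequenced, and diet and calf number were read from the sample labels (13 HI and 15 MOD, where the paper gives equal groups). The authors prepared stranded libraries, trimmed reads with cutadapt, and used STAR for alignment to ARS-UCD1.2 and for gene-level counting. The table that the authors deposited is named as counts but holds a normalized signal, CPM on TMM-adjusted library sizes. Whole reads were recovered from it: 100% of positive values were whole multiples of a read, within 0.01 of a read. The planned test for CPM was therefore used.

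The filterByExpr function (edgeR 4.0.16) kept 14939 genes, which were compared on log2(CPM + 0.5) by limma 3.58.1 (R 4.3.3) with Benjamini-Hochberg adjustment. A fold change on this scale understates that of low genes. On the recovered reads, the edgeR exact and quasi-likelihood tests and DESeq2 1.42.0 called more genes and were alternatives. Correlations used 2-sided permutation with 100000 resamples, within diet or with the diet mean removed. Differences in r between diets were tested by permuting diet labels over values standardised within diet. Both fits were checked on simulated data.

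The 5 genes and all gene lists were chosen with earlier results of these data known. Symbols are those the study's list of differing genes pairs with identifiers (159 genes). Named genes are the 5, list members with an identifier, and for each of the 5 the 3 genes of highest rho that have a symbol and are not among the 5. Calves are separate animals, and no library was left out. The study allocated calves to diets within blocks that the labels do not give, so no block entered the fits. Columns of the authors' own comparisons were not used. No gene sequence or coordinate of the authors' build was used here.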

Additional observations from a re-analysis of the deposited data

Results flagged for a closer look

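SIK1 and MAFF, a small MAF transcription factor, had values of r of opposite sign in the diets, and the test of the difference itself passed, although neither r passed adjustment within its own diet. Their r was 0.70 across the 15 MOD calves and -0.63 across the 13 HI calves, a difference of 1.33 (permutation p = 0.00027, adjusted p = 0.0445 over 165 combinations of the 5 genes with listed genes). It was the only such difference to pass among those 165, and MAFF could be named because the study listed it on these calves.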

How the results depend on the processing

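All 5 genes kept a negative log2 fold change in HI under the 9 alternatives of filter, scaling, pseudocount and test and with each calf left out. Over those 9, RASD1 was called in 9, SIK1 in 8 (not by the edgeR quasi-likelihood test), GADD45B in 8 (not with a pseudocount of 2), RGS1 in 6 and CREM in 2 (the edgeR exact test and DESeq2). With each of the 28 calves left out, limma called RASD1 in 28 fits, GADD45B in 25, SIK1 in 23, RGS1 in 8 and CREM in 0. The number of all genes called, 125, became 69 with a pseudocount of 2, 212 with the edgeR exact test and 211 with DESeq2, and lay between 100 and 170 with a calf left out. The single pair that passed in MOD calves (SIK1 with CREM) did not pass by Spearman rho or without the 2 farthest calves, where 0 pairs passed. The 3 pairs that passed with diet removed became 0 with a pseudocount of 0.1 and 0 with library totals that omit PRL and CSHL1, and lay between 0 and 4 with a calf left out. The causes were not tested. The relations of CREM with SIK1, GPR139 and GNA15 in MOD calves lost their call among the calves with CREM below 30 CPM, an alternative with fewer calves and a narrower range of CREM that was chosen after seeing the data, as were leaving out calf 2551 and removing library properties. Without calf 2551 the relations of SIK1 to genes detected, of CREM to the share of reads on PRL and CSHL1 and of GADD45B to both no longer had an unadjusted permutation p of r below 0.05, although that of rho for CREM with the share stayed below it (0.0295). RGS1, at 10 to 265 reads per calf, is the gene whose level depth limits most. No paired analysis was possible because calf numbers are not shared between the diets.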
